A study of Mus musculus with 10 samples.

Results

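The oviduct epithelium moves salt and water into the lumen, and the genes examined here code for the channels, cotransporters, pump and enzymes of that movement. They were 9 genes taken by symbol from the expression table of mouse oviduct organoids: Cftr, Slc12a2, Slc4a4, Scnn1a, Aqp3, Aqp5, Atp1b1, Car2 and Car12. Each had 1 line among the 54152 lines of the table, and 8 of the 9 reached the mean of 1 FPKM in at least 1 group that was required for testing, as did 15816 genes in all. Aqp3 did not. FPKM are fragments per kilobase of exon, scaled to a size close to the total of the library, so levels can be compared between genes on this scale.

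In a secreting epithelium, the sodium pump keeps cell sodium low, and the sodium, potassium and chloride cotransporter on the basolateral side uses that gradient to load the cell with chloride. Chloride and bicarbonate then leave through anion channels on the apical side, and water follows, partly through aquaporins. Apical sodium channels work in the opposite direction and take salt and water back, and carbonic anhydrases and sodium bicarbonate cotransport provide the bicarbonate of the fluid.

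RNA was sequenced from 10 libraries of organoids, which are epithelial cultures grown in Matrigel, here from the isthmus of mouse oviducts. F/F organoids came from Cdc42 f/f mice, whose Cdc42 gene is flanked by loxP sites. PgrKO organoids came from PgrCre/+ Cdc42 f/f mice, in which Cre is expressed from the progesterone receptor gene, and AdKO organoids were F/F organoids given Cre by an adenovirus with a CMV promoter (Ad5-CMV-Cre). All organoids thus carried the floxed allele. Con organoids were undifferentiated, and Diff organoids had 6 days of 10 nM estrogen (E2) with 1 μM DBZ, which blocks γ-secretase and with it Notch signalling, a treatment used to induce multiciliated cells. Each F/F and PgrKO group was represented by 2 libraries and each AdKO group by 1, so the AdKO values have no replicate of their own. Control females were littermates of the knockout females, per the study's methods, which give a minimum age for mated females but not for the mice that gave organoids, and nothing says whether the replicates were separate animals or cultures, so the tests are against the variation among these libraries, which may be technical.

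Reads recovered from the deposited values, over symbols with 1 gene model, came to 11744271 to 17330672 a library. For Cdc42, F/F_Con had 118 and 133 FPKM, F/F_Diff 125 and 126, PgrKO_Con 104 and 105, PgrKO_Diff 113 and 134, AdKO_Con 81.6 and AdKO_Diff 87.9. In limma with Benjamini-Hochberg adjustment, the differences were -0.26 between PgrKO_Con and F/F_Con (adjusted p = 0.362) and -0.03 between PgrKO_Diff and F/F_Diff (adjusted p = 0.904) on the log2 scale. These values count all exons of Cdc42 and do not resolve the deleted part, so the PgrKO genotype rests on the labels and was not checked by the data, and the genotype directions below are between libraries labelled so. Summed markers of epithelium (5 genes, Epcam among them) lay between 1397 and 2573 FPKM, with none at 0 in any library. Summed leukocyte and macrophage markers (7 genes) lay between 18.9 and 79.7 FPKM in F/F and AdKO, while PgrKO_Con had 161 and 869 and PgrKO_Diff 108 and 1119. Fibroblast markers (7 genes) summed to 0.244 to 13.2 FPKM in F/F and AdKO and to 81.9 to 343 in PgrKO. Summed epithelial markers were thus high in every library. The PgrKO libraries also had higher sums of leukocyte and fibroblast markers, above all in replicate 2 for the leukocyte markers. Their leukocyte sum was largely Lyz2, at 127 and 720 FPKM in PgrKO_Con and 78.2 and 874 in PgrKO_Diff. Against F/F_Con not all 7 were higher, as Cd74 lay at 59.8 and 25.1 FPKM there and at 12.3 and 27.1 in PgrKO_Con. Endothelial markers (4 genes) summed to 0.242 to 2.86 FPKM in F/F and AdKO and to 9.65 to 31.2 in PgrKO. Smooth muscle markers (4 genes) summed to 0.942 to 8.63 and to 6.59 to 23.4 FPKM.

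Of the 9 genes, Slc4a4, which codes for the electrogenic sodium bicarbonate cotransporter NBCe1, was the one whose differences passed the test. Its gene lies on chromosome 5 (mm10, 88886818 to 89239653, plus strand), and RefSeq holds 2 start sites for it. The 250 bases before and 50 after each start are shown because E2, and the Notch signalling that DBZ blocks, act through known DNA-binding proteins. E2 acts through receptors that bind the estrogen response element, in which 2 copies of the half-site GGTCA face each other across 3 bases, or the half-site alone, and Notch acts through RBPJ, whose core site holds TGGGAA. Capitals mark half-sites and RBPJ cores on either strand, and the whole element was not in either window. Upstream start, chr5:88887010-88887309 (GRCm38.p6, the assembly of mm10), plus strand, 80.0% GC:
Slc4a4_1: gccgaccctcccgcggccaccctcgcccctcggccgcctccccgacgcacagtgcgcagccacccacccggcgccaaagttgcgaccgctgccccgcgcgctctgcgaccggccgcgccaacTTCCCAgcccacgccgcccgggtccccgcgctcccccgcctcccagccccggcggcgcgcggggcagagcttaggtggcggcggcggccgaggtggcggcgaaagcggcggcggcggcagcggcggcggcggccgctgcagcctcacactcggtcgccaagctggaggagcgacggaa
Downstream start, chr5:89027716-89028015, plus strand, 48.3% GC:
Slc4a4_2: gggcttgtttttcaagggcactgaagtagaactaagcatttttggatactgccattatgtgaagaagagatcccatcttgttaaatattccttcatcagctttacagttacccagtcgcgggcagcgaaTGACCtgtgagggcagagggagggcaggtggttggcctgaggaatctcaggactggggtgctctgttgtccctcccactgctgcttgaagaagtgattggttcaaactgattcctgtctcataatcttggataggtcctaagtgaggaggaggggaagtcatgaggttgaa
The upstream window held 1 RBPJ core on the minus strand, 128 bases before the start. The downstream window held 1 half-site on the minus strand, 121 bases before its start. In all, 7 windows of 6 members were searched. The window of Aqp5, which passed no test, also held 1 half-site, 90 bases before its start. Among all 32851 RefSeq promoter windows of this length, 25.6% held the RBPJ core, 40.5% the half-site, which the whole element also contains, and 0.07% the whole element. A match of so few letters is a description of the sequence and not a binding site. The deposited values are summed over the gene and do not separate the starts.

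Slc4a4 fell on differentiation of F/F organoids, from a mean of 17.4 to 8.62 FPKM. It did not pass the test on differentiation of PgrKO organoids, where 0 of the 15816 genes tested passed. The F/F_Con libraries had 17.2 and 17.6 FPKM and the F/F_Diff libraries 7.52 and 9.72. PgrKO_Con had 15.3 and 19.9 FPKM, PgrKO_Diff 18.5 and 17.6, AdKO_Con 17.5 and AdKO_Diff 15.4. The 2 F/F_Diff libraries were the lowest of the 10, and the other 8 lay between 15.3 and 19.9. The log2 fold change of F/F_Diff against F/F_Con was -0.95 (SE 0.17, 95% interval -1.36 to -0.53, adjusted p = 0.0175 in limma with Benjamini-Hochberg adjustment over all genes tested). It was the 1 member called of 8 tested, where 19.3% of all genes tested were called, so the count of members called is no result about the group. The call was lost without any 1 of the 4 F/F libraries (log2 fold change -1.11 to -0.78, adjusted p 0.0653 to 0.0949), fits in which the lone library of a group is taken to vary like the others. When replicate 2 of either F/F_Con or F/F_Diff was left out, 0 genes of the whole table passed in this comparison.

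Between differentiated organoids, Slc4a4 was higher in PgrKO_Diff than in F/F_Diff, by 1.00 on the log2 scale (SE 0.17, 95% interval 0.58 to 1.41, adjusted p = 0.010 in limma). It was again the 1 member called of 8, against 27.1% of all genes tested. This call held in every alternative run, with the adjusted p between 0.00723 and 0.0473, the latter without the replicate 2 libraries of PgrKO_Con and PgrKO_Diff that held the most leukocyte RNA. In AdKO_Diff against F/F_Diff the difference was 0.78 (SE 0.21, adjusted p = 0.0803), which did not pass. Both comparisons use the same 2 F/F_Diff libraries, as does the response to differentiation. The response of PgrKO organoids was 0.05 (SE 0.17), and it exceeded that of F/F organoids by 1.00 (SE 0.24, adjusted p = 0.0740), which did not pass either.

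Multiciliated cell markers (7 genes, Foxj1 and Dnah5 among them) summed to 813 and 990 FPKM in F/F_Diff and to 52.0 to 226 in the other 8 libraries, so the libraries low in Slc4a4 were those high in these markers. Slc4a4 was singled out for its low values in F/F_Diff, so this match follows from that choice. In limma, 1090 of the 15816 genes tested were called lower in F/F_Diff than in F/F_Con. The 3 secretory markers also differed there in limma, in both directions. From F/F_Con to F/F_Diff, Ovgp1 rose from 91.9 and 141 to 1345 and 3822 FPKM, Pax8 fell from 27.1 and 32.7 to 18.8 and 19.4, and Sox17 fell from 35.6 and 34.8 to 12.6 and 16.0. The part of these markers in the result was not tested. In bulk RNA, fewer cells that express a gene and less RNA of it per cell cannot be told apart.

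**Figure D1:**
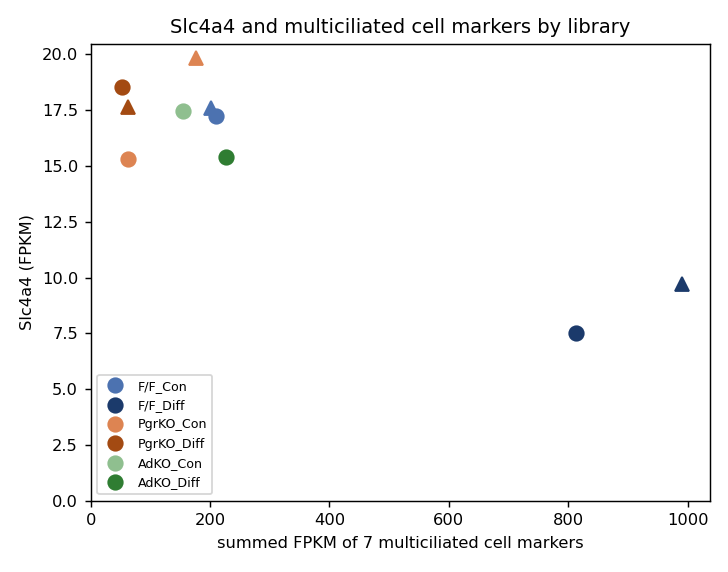
Slc4a4 (FPKM, vertical axis) against the summed FPKM of 7 multiciliated cell markers (horizontal axis) in 10 libraries, colored by group, with circles for replicate 1 and triangles for replicate 2. The 2 F/F_Diff libraries lie at 813 and 990 on the horizontal axis and below 10 FPKM of Slc4a4, and the other 8 lie at 15.3 FPKM of Slc4a4 or more.

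Among the chloride genes, Slc12a2, the basolateral cotransporter NKCC1 (chromosome 18, 57878678 to 57946821), was one of the most abundant members. It lay at 35.3 and 45.9 FPKM in F/F_Con and at 92.9 and 75.9 in F/F_Diff. PgrKO_Con had 91.9 and 56.0 FPKM, PgrKO_Diff 168 and 88.5, AdKO_Con 52.1 and AdKO_Diff 60.4. Both F/F_Con libraries were below each of the other 8. The fitted difference was 1.04 for F/F_Diff against F/F_Con (SE 0.37, 95% interval 0.13 to 1.95) and 0.82 for PgrKO_Con against F/F_Con (SE 0.37, interval -0.09 to 1.73), with adjusted p-values of 0.104 and 0.269 in limma. Neither passed the threshold. With a block within genotype, added after seeing the data, the first passed (adjusted p = 0.0377 in limma). The block left that difference at 1.04 and changed its error. F/F_Con and F/F_Diff libraries of the same number did not deviate together (correlation -0.05), so the values give no ground for a block within F/F.

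Cftr, the apical chloride and bicarbonate channel that is mutated in cystic fibrosis (chromosome 6, 18170687 to 18322768), was expressed at a lower level. It lay at 7.91 and 3.27 FPKM in F/F_Con and at 13.5 and 11.1 in F/F_Diff. PgrKO_Con had 11.3 and 6.31 FPKM, PgrKO_Diff 8.01 and 7.44, AdKO_Con 8.27 and AdKO_Diff 6.73. The F/F_Diff libraries lay above both F/F_Con libraries, which themselves differed more than those of 96.1% of the genes tested. The difference of 1.10 (SE 0.40, 95% interval 0.13 to 2.07, adjusted p = 0.106 in limma) did not pass. In PgrKO the difference on differentiation was -0.12 (interval -1.09 to 0.84, adjusted p = 0.962).

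Scnn1a codes for the α subunit of the epithelial sodium channel ENaC, the apical route of sodium uptake (chromosome 6, 125320659 to 125344943). It lay at 1.69 and 2.22 FPKM in F/F_Con and at 3.77 and 9.74 in F/F_Diff. PgrKO_Con had 3.62 and 4.42 FPKM, PgrKO_Diff 4.91 and 4.15, AdKO_Con 4.18 and AdKO_Diff 3.82. As with Slc12a2, both F/F_Con libraries were the lowest of the 10. The difference between F/F_Diff and F/F_Con was 1.28 (SE 0.37, 95% interval 0.37 to 2.20, adjusted p = 0.0617 in limma) and did not pass. It passed with the block within genotype added after seeing the data (adjusted p = 0.0470 in limma), which left the difference at 1.28. The difference came to 1.87 without F/F_Diff replicate 1 and to 0.70 without F/F_Diff replicate 2, whose 9.74 FPKM lay far above the rest.

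Atp1b1, the β1 subunit of the sodium pump, needed for the pump to reach the membrane (chromosome 1, 164437109 to 164458355), was expressed in all libraries at 62.1 FPKM or more. It lay at 69.4 and 127 FPKM in F/F_Con and at 62.1 and 83.0 in F/F_Diff. PgrKO_Con had 83.8 and 115 FPKM, PgrKO_Diff 144 and 115, AdKO_Con 99.8 and AdKO_Diff 103. The PgrKO_Diff libraries lay above the F/F_Diff libraries. Their difference of 0.83 (SE 0.34, 95% interval 0.01 to 1.66, adjusted p = 0.120 in limma) did not pass. On differentiation of F/F organoids the difference was -0.38 (interval -1.21 to 0.44), and the libraries overlapped.

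**Figure D2:**
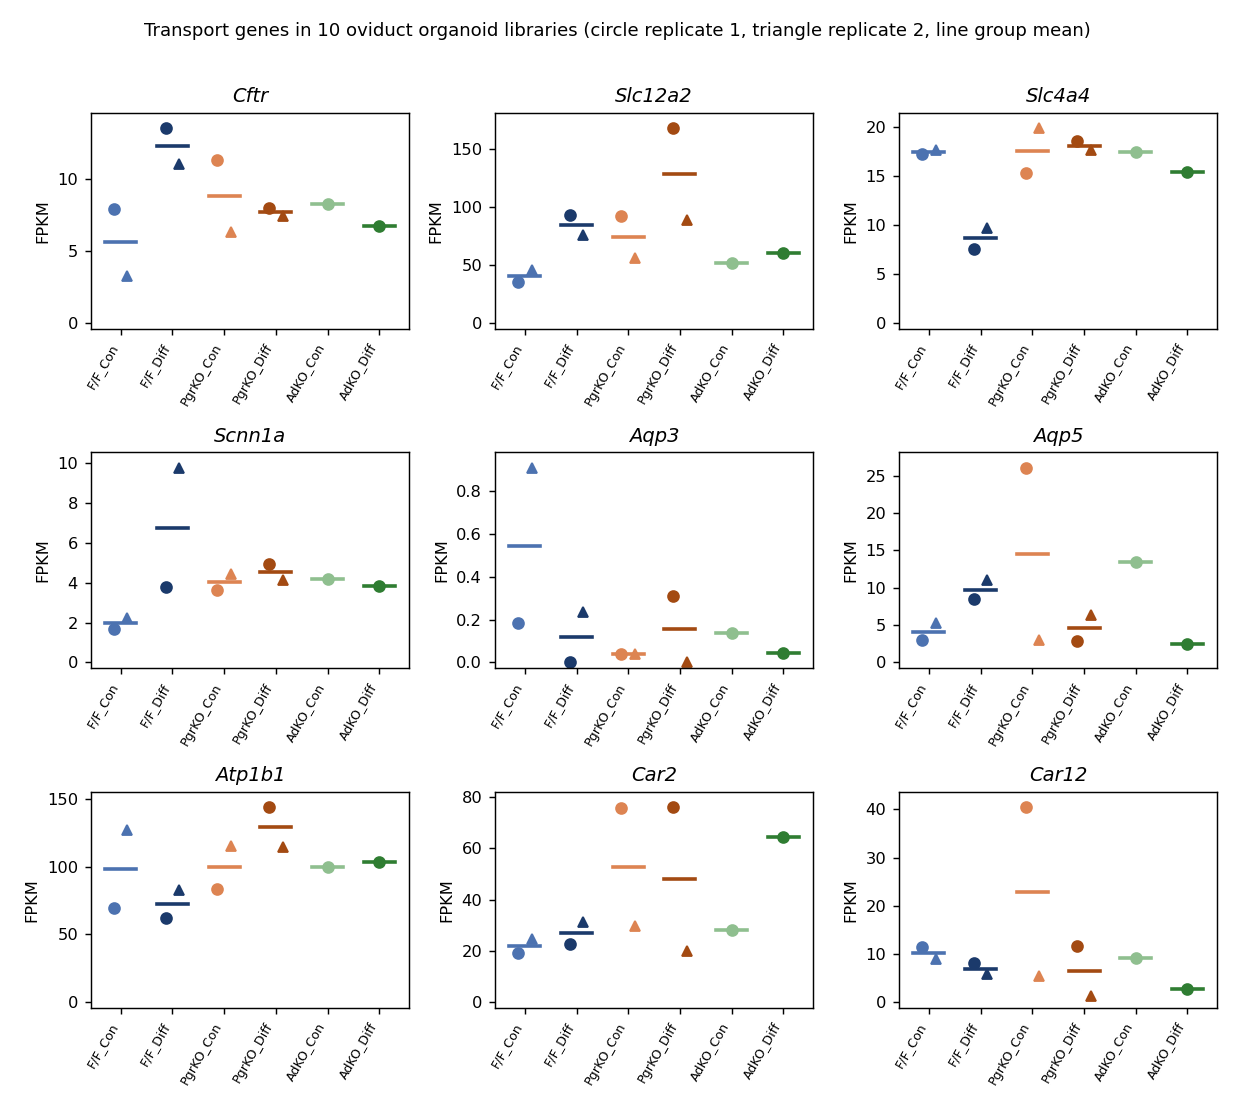
FPKM (vertical axis, a scale per gene) of the 9 genes in the 10 libraries, by group on the horizontal axis, with circles for replicate 1, triangles for replicate 2 and a line at the group mean. Slc4a4 is low in both F/F_Diff libraries, Slc12a2 and Scnn1a are lowest in both F/F_Con libraries, and the PgrKO replicates lie far apart in Aqp5, Car2 and Car12.

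The carbonic anhydrases differed widely between the PgrKO replicates. Car2, the cytosolic enzyme (chromosome 3, 14886273 to 14900770), lay at 19.1 and 24.7 FPKM in F/F_Con and at 22.5 and 31.4 in F/F_Diff. PgrKO_Con had 75.7 and 29.7 FPKM, PgrKO_Diff 76.0 and 19.8, AdKO_Con 28.2 and AdKO_Diff 64.4. Replicate 1 was the higher one in both PgrKO groups, by 1.32 in PgrKO_Con and 1.89 in PgrKO_Diff on the log2 scale, gaps larger than in 96.5% and 98.0% of the genes tested. Its difference between PgrKO_Con and F/F_Con was 1.09 (SE 0.69, 95% interval -0.59 to 2.77, adjusted p = 0.407 in limma).

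Car12, a membrane enzyme with its active site outside the cell (chromosome 9, 66713686 to 66766845), varied more than any other tested member, 33.0-fold from the lowest to the highest library. It lay at 11.4 and 8.84 FPKM in F/F_Con and at 8.04 and 5.76 in F/F_Diff. PgrKO_Con had 40.4 and 5.37 FPKM, PgrKO_Diff 11.7 and 1.22, AdKO_Con 9.09 and AdKO_Diff 2.67. Replicate 1 was again the higher one in both PgrKO groups, by 2.70 and 2.51 on the log2 scale, gaps larger than in 99.6% and 99.3% of the genes tested. With such gaps its standard error was 1.07, and no difference of Car12 passed. A block within genotype takes the gap between replicates out of the error, and with it PgrKO_Diff against F/F_Diff passed (-0.56, adjusted p = 0.0397 in limma), although these groups overlapped and the difference was 0.70 without the PgrKO replicate 2 libraries. In both PgrKO groups, the replicate 1 library with more Car2 and Car12 had the lower sum of leukocyte markers. The sums were 161 against 869 FPKM in PgrKO_Con and 108 against 1119 in PgrKO_Diff. The part of these markers in the gaps was not tested.

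Aqp5, a water channel of glands and airways (chromosome 15, 99590782 to 99594829), was the one aquaporin among the members that was tested. It lay at 3.01 and 5.22 FPKM in F/F_Con and at 8.45 and 11.0 in F/F_Diff. PgrKO_Con had 26.0 and 3.04 FPKM, PgrKO_Diff 2.85 and 6.37, AdKO_Con 13.5 and AdKO_Diff 2.47. The F/F_Diff libraries lay above the F/F_Con libraries, by 1.09 (SE 0.86, 95% interval -1.02 to 3.20, adjusted p = 0.424 in limma). The PgrKO_Con libraries, 2.74 apart on the log2 scale, spanned nearly the whole range. Aqp3, which conducts water and glycerol (chromosome 4, 41092722 to 41098183), was listed at 0 to 0.907 FPKM, from 0 to 23 reads a library and 51 reads in all. Its highest value was in F/F_Con replicate 2, and with so few reads it was not tested.

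Within F/F_Con, the mean FPKM fell in the order Atp1b1 (98.2), Slc12a2 (40.6), Car2 (21.9), Slc4a4 (17.4), Car12 (10.1), Cftr (5.59), Aqp5 (4.11), Scnn1a (1.95) and Aqp3 (0.545). Neighbours in this order did not overlap between libraries, except Cftr and Aqp5. Slc12a2 exceeded Atp1b1 in 3 of the 10 libraries, 1 each of F/F_Diff, PgrKO_Con and PgrKO_Diff.

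Counted together, 5 of the 8 members tested lay above 0 and 3 below in F/F_Diff against F/F_Con, with a median of 0.66 on the log2 scale against -0.02 over all genes tested. Besides Slc4a4, Cftr, Slc12a2 and Scnn1a had an unadjusted p under 0.05, with higher values in F/F_Diff, as 5534 of the 15816 genes tested had an unadjusted p under 0.05 in either direction. In PgrKO_Diff against PgrKO_Con, 0 of the 8 passed and 0 had an unadjusted p under 0.05, with a median of -0.04. In limma 0% of all genes tested passed there, and 1179 had an unadjusted p under 0.05. In PgrKO_Con against F/F_Con, all 8 had fitted values above 0, from 0.00 in Slc4a4 (-0.01 with quantile scaling) to 1.09 in Car2, with a median of 0.69. Over all genes tested, 7767 lay above 0 and 7969 below, with a median of -0.00. Of the members 0 passed in limma and 0 had an unadjusted p under 0.05, where 0.62% of all genes tested passed and 3462 had an unadjusted p under 0.05. This comparison and that of F/F_Diff with F/F_Con share the F/F_Con libraries, which were the lowest in Slc12a2 and Scnn1a. The interaction, by which the PgrKO response exceeds that of F/F, passed in 0 of the 8 (1 with an unadjusted p under 0.05, Slc4a4), against 4.41% of all genes tested.

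The AdKO comparisons rest on 1 library a group, whose spread is taken from the other groups, so a missing call there says little. AdKO organoids were also infected with an adenovirus, and the titles of the F/F libraries name no virus. In AdKO against F/F, infection and the targeting of Cdc42 thus cannot be told apart. In AdKO_Con against F/F_Con 0 of 8 passed in limma (0.0506% of all genes tested, and 0 members with an unadjusted p under 0.05). In AdKO_Diff against F/F_Diff 0 passed (6.16% of all, and 1 member with an unadjusted p under 0.05, Slc4a4), and in AdKO_Diff against AdKO_Con 0 passed (0% of all, and 709 genes with an unadjusted p under 0.05).

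**Figure D3:**
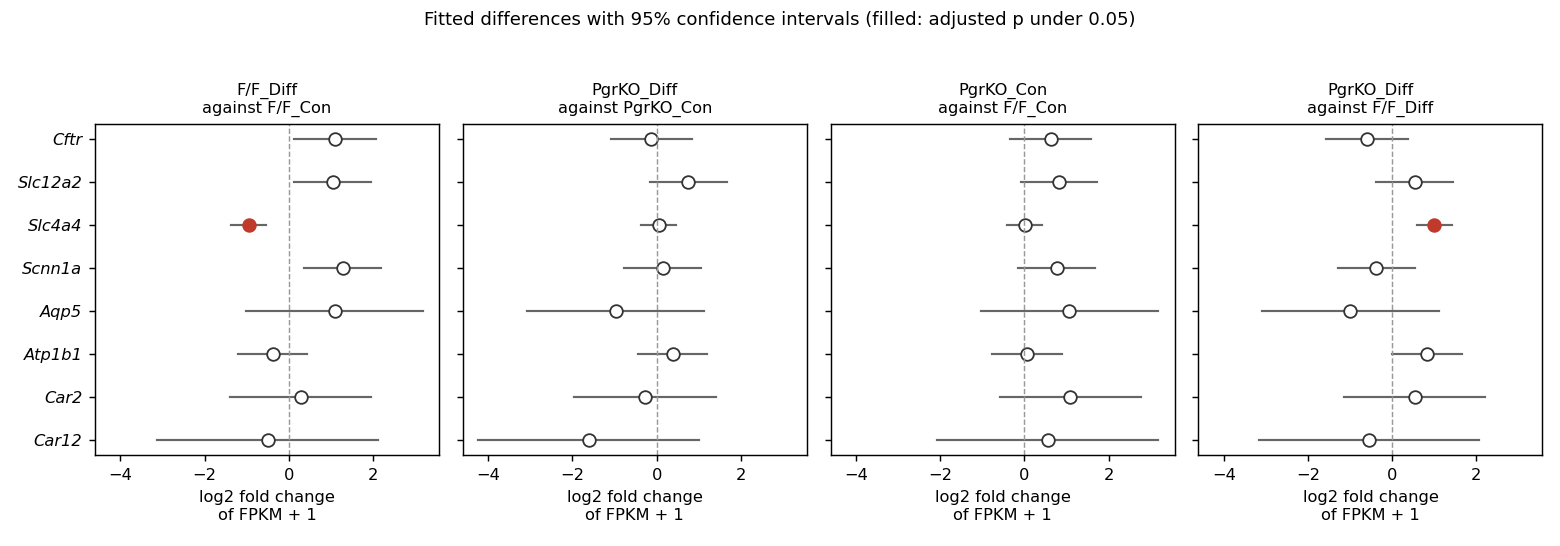
Log2 fold change of FPKM + 1 (horizontal axis) with its 95% confidence interval for the 8 members tested, in 4 comparisons. Filled points passed an adjusted p of 0.05, which were Slc4a4 at -0.95 in F/F_Diff against F/F_Con and at 1.00 in PgrKO_Diff against F/F_Diff.

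Of 77 other genes of ion and water transport, 56 were tested. In F/F_Diff against F/F_Con, 6 rose and 8 fell in limma, where 12.4% of all genes tested rose and 6.89% fell. Kcne3, a β subunit of the potassium channel Kcnq1, fell from 41.7 and 29.9 FPKM to 3.11 and 3.40, by 3.09 on the log2 scale (SE 0.46, adjusted p = 0.0121). In PgrKO it lay at 29.3 and 60.9 FPKM before and 7.80 and 3.21 after differentiation (-2.83, adjusted p = 0.366 in limma), and the responses differed by 0.26 (adjusted p = 0.853). In AdKO it lay at 9.25 and 1.61 FPKM. Atp6v1b1, a subunit of the proton pump of acid-secreting cells, fell from 6.77 and 8.30 to 0.125 and 0.549 FPKM (log2 fold change -2.69, SE 0.29, adjusted p = 0.00940). The calcium-activated chloride channel Ano1 (16.5 and 7.83 to 2.84 and 1.64 FPKM) and Wnk4, a kinase that regulates chloride cotransporters (10.3 and 7.55 to 2.36 and 4.22 FPKM), fell by 1.97 and 1.23. Undifferentiated knockout organoids were already below F/F_Con in Ano1, at 3.24 and 4.24 FPKM in PgrKO_Con and 4.55 in AdKO_Con. Wnk4 lay at 7.35 and 7.85 FPKM in PgrKO_Con and 12.6 in AdKO_Con.

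Of the rises, Atp6v1c2, another proton pump subunit, went from 0.771 and 0.199 to 4.37 and 11.4 FPKM (log2 fold change 2.48, adjusted p = 0.0360 in limma). Fxyd4, a regulator of the sodium pump, went from 1.66 and 1.07 to 7.86 and 5.61 FPKM (1.71, adjusted p = 0.0101). Sgk1, a kinase that raises ENaC at the membrane, went from 11.1 and 16.0 to 43.4 and 40.2 FPKM (1.58, adjusted p = 0.0317). Slc9a3r1, a scaffold that binds the tail of Cftr, went from 101 and 102 to 189 and 189 FPKM (0.89, adjusted p = 0.0152). Undifferentiated knockout organoids were already above F/F_Con in Sgk1, at 45.4 and 22.0 FPKM in PgrKO_Con and 52.2 in AdKO_Con. The same held for Atp6v1c2, at 4.46 and 3.01 and at 1.03 FPKM. Fxyd4 (0.682 and 0.756, and 0.507 FPKM) and Slc9a3r1 (99.2 and 118, and 119 FPKM) stayed below F/F_Diff there. Without 1 F/F library, the count of 14 called among the 56 came to between 0 and 6. Each of the 8 named lost its call without at least 1 F/F library.

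In PgrKO_Con against F/F_Con, 1 of the 56 was called, Atp6v1b1, at 0.0481 and 0.708 FPKM against 6.77 and 8.30 (log2 fold change -2.67, SE 0.29, adjusted p = 0.0441 in limma). This call was lost in 6 of 8 fits with 1 library left out, and with a pseudocount of 0.1, no filter, 5 FPKM, only the libraries compared, the replicate block or voom. In PgrKO_Diff against F/F_Diff, 7 were higher and 6 lower in the libraries labelled PgrKO, where 11.7% and 15.4% of all genes tested were. Slc12a4, the potassium chloride cotransporter KCC1, lay at 12.3 and 21.7 FPKM against 5.78 and 6.14 (log2 fold change 1.32, adjusted p = 0.0201). Atp1b3, another β subunit of the sodium pump, lay at 74.9 and 95.1 against 42.9 and 46.4 FPKM (0.90, adjusted p = 0.0129). The chloride channel Clcn2 and the anion exchanger Slc4a2 were higher by 0.86 each. These genes also lay higher in PgrKO_Con than in F/F_Con, before differentiation, without a call. Slc12a4 lay at 13.8 and 12.8 against 6.62 and 9.73 FPKM, and Atp1b3 at 87.4 and 71.9 against 43.1 and 41.8. Clcn2 lay at 20.9 and 14.3 against 13.6 and 9.79 FPKM, and Slc4a2 at 15.3 and 15.2 against 9.46 and 6.79.

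Fxyd4 was lower in PgrKO_Diff, at 0.160 and 0.174 FPKM against 7.86 and 5.61 in F/F_Diff (log2 fold change -2.71, SE 0.21, adjusted p = 0.00283 in limma). So were the anion transporter Slc26a9 (1.98 and 3.07 against 11.1 and 8.51 FPKM), by 1.62, and the scaffolds of the apical membrane Ezr and Slc9a3r1, by 0.84 and 0.81. Fxyd4 and Slc9a3r1 thus rose on differentiation of F/F organoids and were lower in PgrKO_Diff, and both differences use the same F/F_Diff libraries. Before differentiation, Slc26a9 was already lower in PgrKO_Con (4.59 and 6.82 FPKM) than in F/F_Con (15.9 and 26.2), without a call. So was Fxyd4 (0.682 and 0.756 against 1.66 and 1.07 FPKM), while Ezr and Slc9a3r1 overlapped between these groups. Of these 8 genes, Fxyd4 was the 1 that kept its call without each F/F or PgrKO library in turn. The multiciliated, leukocyte and fibroblast markers given above also differed between these libraries, and their part in these differences was not tested. With 1 library a group, Fxyd4 lay at 0.507 FPKM in AdKO_Con and 0.302 in AdKO_Diff. Wnk4 lay at 12.6 and 13.3 FPKM there, against 2.36 and 4.22 in F/F_Diff. Fxyd4 and Wnk4 were the other transport genes called in AdKO_Diff against F/F_Diff.

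**Figure D4:**
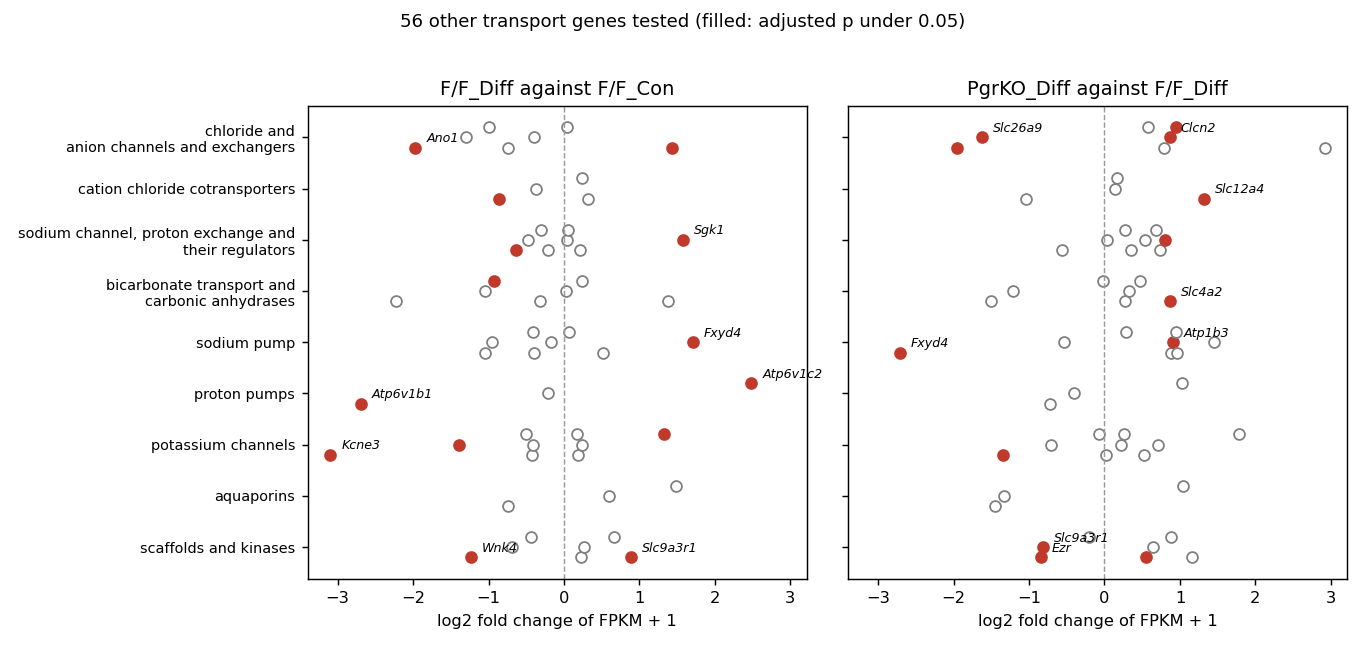
Log2 fold change of FPKM + 1 (horizontal axis) of the 56 other transport genes tested, by kind of gene (vertical axis), in F/F_Diff against F/F_Con (left) and PgrKO_Diff against F/F_Diff (right). Filled points passed an adjusted p of 0.05, which were 14 genes on the left and 13 on the right, and the 4 largest rises and falls with at least 5 FPKM are named.

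Over the 10 libraries, the members did not follow 1 shared pattern. The highest Pearson correlation between members was that of Slc4a4 with Atp1b1 (r = 0.71) and the lowest that of Cftr with Aqp3 and with Atp1b1 (r = -0.68 each), on log2(FPKM + 1). These are descriptions, since the points share groups. Correlations of Aqp3, here and with its nearest genes below, rest on 0 to 23 reads a library, the most in F/F_Con replicate 2. Among 9479 genes with a group mean of at least 5 FPKM, the pattern most like that of Slc4a4 was that of Elavl1 (r = 0.97) and Ppp1cc (0.95), and that most like Slc12a2 was Caprin2 (0.94) and Spty2d1 (0.94). For Car2 these were Scmh1 (0.95) and Sdhb (0.95), for Scnn1a Asb1 (0.92) and Rev3l (0.91), and for Atp1b1 Sart1 (0.90) and Mrpl4 (0.89). Cftr was closest to Flywch1 (0.89) and Borcs7 (0.89), Car12 to Isg20 (0.89) and Lsm5 (0.85), and Aqp3 to Pan2 (0.89) and Clpb (0.89). Aqp5 had the least similar neighbours, Degs2 (0.73) and Tm9sf4 (0.73).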

How the data were processed

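RNA from 10 oviduct organoid libraries was sequenced in pairs of reads. The deposited table holds FPKM, which the authors made, per the submitters' processing notes, with HISAT2, mm10 and edgeR, versions not given in the sources used here. The study's methods name Tophat2 and RPKM instead. Genes were placed on mm10 through their symbols in GENCODE M21, and 54047 symbols match 1 gene model. FPKM times exon length and library size came out whole, to 0.01 read, in no less than 99.9963% of a library's values, so depth is known. The fitted library size was 0.919 to 1.06 times the reads recovered, a scaling within the deposited values.

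Values were taken as log2(FPKM + 1), which understates changes of low genes. Genes whose group mean reached 1 FPKM in any of the 6 groups were kept, and all 10 libraries entered 1 fit of limma 3.58.1 with a prior trend (R 4.3.3). P-values were 2-sided and adjusted by Benjamini-Hochberg over all genes kept, at a threshold of 0.05. Promoter windows of 6 of the 9 members were read from RefSeq (GRCm38.p6) in Python 3.11.15 with pandas 2.3.3, and figures used matplotlib 3.10.9. The fit was also run on simulated counts with independent libraries and the same relative spread for all genes, unlike the PgrKO replicates here. That run says nothing about how the fit behaves with such replicates.

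Text names the members, of the other transport genes the 4 largest rises and falls with adjusted p under 0.05, at least 5 FPKM and no overlap, and the 2 genes most correlated with each member. Members, lists and tests were chosen with earlier results of these data known. Alternatives were quantile or median scaling, a pseudocount of 0.1, no filter or 5 FPKM, only the libraries compared, no AdKO, leaving out each replicate of F/F and PgrKO, leaving out both PgrKO replicate 2 libraries, the replicate number as a block, and voom on the recovered reads. A block within genotype was added after seeing the data. The genotype labels of the F/F samples carry a gene number that counts up from sample to sample and were read as Cdc42.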

Additional observations from a re-analysis of the deposited data

Results flagged for a closer look

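For 2 of the other transport genes the response to differentiation differed between PgrKO and F/F organoids by the interaction term of the same fit (limma, Benjamini-Hochberg adjustment). Fxyd4 differed by -2.26 (SE 0.30, adjusted p = 0.0428). It rose in both F/F_Diff libraries and lay at 0.682 and 0.756 FPKM in PgrKO_Con and 0.160 and 0.174 in PgrKO_Diff. Atp6v1b1 differed by 2.27 (SE 0.41, adjusted p = 0.0460, a value that depends on the pseudocount). It fell in both F/F_Diff libraries and lay at 0.0481 and 0.708 FPKM in PgrKO_Con and at 0 in both PgrKO_Diff libraries. It was thus already low in undifferentiated PgrKO organoids. With voom on the recovered reads the Atp6v1b1 difference was 0.16 (adjusted p = 0.976), and that of Fxyd4 was -4.26 (adjusted p = 0.0646). Both calls were also lost with a pseudocount of 0.1, without a filter, with 5 FPKM required, with either block and without each of most single libraries.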

How the results depend on the processing

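Of 1168 values of members under the alternatives, 1128 kept direction and side of the threshold, 31 changed sign, 5 gained a call and 4 lost one, and no value that changed sign had been called. The members called in F/F_Diff against F/F_Con numbered 0 to 1 with 1 library left out, and in PgrKO_Diff against F/F_Diff 1 to 2. With a block within genotype, chosen after seeing the data, they numbered 3 (also Slc12a2, adjusted p = 0.0377, and Scnn1a, adjusted p = 0.0470, in limma) and 2 (also Car12, adjusted p = 0.0397). With the plain replicate block, Slc4a4 was -0.95 (adjusted p = 0.0264) and 1.00 (adjusted p = 0.0148), and no member's call changed. Deviations of libraries with the same number correlated at 0.53 for PgrKO_Con with PgrKO_Diff and at -0.17 to -0.04 for the other 5 pairs. PgrKO_Con and PgrKO_Diff libraries of the same number thus deviated together and the others did not, and since not every pair correlated above 0.1, the number was not taken to pair the samples across all groups.

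Among the other transport genes, the 14 calls of F/F_Diff against F/F_Con came to 7 without a filter, 8 with only the libraries compared or without both PgrKO replicate 2 libraries, 9 with the replicate block, and 0 to 10 with 1 library left out. The 13 of PgrKO_Diff against F/F_Diff came to 2, 4 and 3 to 11 with only the libraries compared, without both PgrKO replicate 2 libraries and with 1 left out. The 1 call of PgrKO_Con against F/F_Con came to 3 without both PgrKO replicate 2 libraries, 0 to 1 with 1 left out, and 0 with the pseudocount of 0.1, no filter, 5 FPKM, only the libraries compared, the replicate block or voom. The 2 of AdKO_Diff against F/F_Diff came to 1 with the pseudocount of 0.1, 4 with 5 FPKM, 0 to 2 with 1 left out, and 0 without both PgrKO replicate 2 libraries, with either block or with voom. The 2 of the interaction came to 0 to 1 with 1 left out, and to 0 with the pseudocount of 0.1, no filter, 5 FPKM, both PgrKO replicate 2 libraries out, either block or voom. Without a filter, AdKO_Con against F/F_Con and AdKO_Diff against AdKO_Con gave 1 each in place of 0. The cause of these changes was not tested.

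With both PgrKO replicate 2 libraries out, Car2 was 0.0053 in PgrKO_Diff against PgrKO_Con, Slc4a4 -0.17 and Atp1b1 -0.16 in PgrKO_Con against F/F_Con, and Car12 0.70 in PgrKO_Diff against F/F_Diff. With quantile scaling, Slc4a4 was -0.012 in PgrKO_Con and -0.035 in AdKO_Con against F/F_Con. With 1 library left out, Atp1b1 ranged from -0.81 to 0.048 in F/F_Diff against F/F_Con. In PgrKO_Diff against PgrKO_Con, Cftr ranged from -0.50 to 0.25, Slc4a4 from -0.13 to 0.23, Aqp5 from -2.34 to 0.40 and Car2 from -1.22 to 0.67. In PgrKO_Con against F/F_Con, Slc4a4 ranged from -0.17 to 0.18, Aqp5 from -0.31 to 2.44, Atp1b1 from -0.37 to 0.50 and Car12 from -0.80 to 1.90. In PgrKO_Diff against F/F_Diff, Scnn1a ranged from -0.96 (adjusted p = 0.0497 without F/F_Diff replicate 1) to 0.21, Car2 from -0.41 to 1.48 and Car12 from -1.81 to 0.70. In AdKO_Con against F/F_Con, Slc4a4 ranged from -0.010 to 0.020, Atp1b1 from -0.34 to 0.52 and Car12 from -0.30 to 0.036, and in AdKO_Diff against F/F_Diff Scnn1a from -1.16 to 0.014. In the interaction, Slc12a2 ranged from -0.74 to 0.17, Car2 from -1.50 to 0.39 and Car12 from -2.46 to 0.24. The fit with only the libraries compared was not run for AdKO, with 1 library a group. Depth limits Aqp3 alone among the members, with 51 reads in all.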

Other observations

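Some other transport genes stood out in level and were named after their values were seen. Aqp8, Car9, Scnn1b and Scnn1g were all tested, and none passed in limma in any of the 8 comparisons. Aqp8, a water channel, reached the highest level of the listed aquaporins, at 212 and 20.2 FPKM in PgrKO_Con, 202 in AdKO_Con and 135 in AdKO_Diff, against 0.777 and 4.65 in F/F_Con and 2.64 and 20.7 in F/F_Diff. In PgrKO_Diff it was 12.9 and 23.0 FPKM. Car9, another membrane carbonic anhydrase, lay at 40.2 and 31.6 FPKM in F/F_Con and 15.9 and 2.62 in F/F_Diff, and between 0.916 and 2.10 in the PgrKO and AdKO libraries. Of the other ENaC subunits, Scnn1b lay at 0.340 and 0.548 FPKM in F/F_Con and 0.208 and 0.281 in F/F_Diff, but at 6.41 and 0.910 in PgrKO_Con, where replicate 1 exceeded the 3.62 FPKM of Scnn1a. PgrKO_Diff had 1.24 and 0.778 FPKM, AdKO_Con 3.55 and AdKO_Diff 2.85. Scnn1g lay between 0.0374 and 1.86 FPKM, lowest in F/F_Con replicate 1 and highest in PgrKO_Con replicate 1.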
